A study of Mus musculus with 12 samples.

Results

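The plasminogen activators and matrix proteases were followed as 9 genes: Plau, Plaur, Plat, Serpinb2, Mmp12, Mmp13, Mmp14, Timp1 and Timp2. They were taken by symbol from a table of 19910 genes, and all 9 were listed there. The libraries came from bone marrow of female C57BL/6J mice aged 6 to 10 weeks, transduced with retrovirus harvested at 48 and 72 h from packaging cells. Every group received a pair of vectors: both empty (called empty here), SETBP1 D868N with an empty vector (SETBP1), NRAS G12D with an empty vector (NRAS), or both mutants (both), with 3 libraries each and 12 in all. The labels call the cells murine leukemia cells and do not say whether replicates were separate mice, transductions or cultures, so p-values measure the spread between these libraries, which may be technical. The mutants were expressed from viral vectors and not from the mouse's own loci.

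Plasminogen is a circulating zymogen that a pair of serine proteases, urokinase (Plau) and tissue-type activator (Plat), cut into plasmin, which degrades fibrin and can activate other proteases at the cell surface. Plaur encodes the lipid-anchored urokinase receptor and Serpinb2 a serpin that inhibits both activators. Matrix metalloproteases are zinc enzymes: Mmp12 is the elastase of macrophages, Mmp13 a collagenase of fibrillar collagen, and Mmp14 a membrane-anchored protease that activates pro-Mmp2. Timp1 and Timp2 encode secreted inhibitors of these enzymes, and Timp2 also takes part in the activation of pro-Mmp2 by Mmp14. Monocytes, macrophages and neutrophils use this system when they move through tissue, and several of its genes are textbook targets of the RAS and MAPK pathway through AP-1 and Ets factors.

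In short, 7 of the 8 members that passed the low-count filter rose with NRAS: Plau, Plaur, Serpinb2, Mmp12, Mmp13, Timp1 and Timp2. The exception was Mmp14, which rose with SETBP1 alone and lay far below that level in both groups with NRAS. Of all genes tested, 17.0% were called higher for NRAS against empty. Plau and Timp1 passed the filter through the groups with NRAS, where they were high. Plat was essentially silent, with 1 read in 1 of the 12 libraries. A library's total ran from 7085894 to 8864919 counts and 11835 to 12800 genes had a count. Nras checked the labels, at 81.4 to 96.5 CPM (counts scaled to a common library total) without the NRAS vector and 1393 to 1680 CPM with it. Setbp1 had 0 reads in every library without its vector and 5 to 17 reads in those with it. SETBP1 replicate 3 stood apart on the second principal component, at -69.0 beside -11.9 to 26.3 for the other 11 libraries. For several member results the value without it is given as well. Values of genes other than the members, and marker counts, include it unless stated, so SETBP1 results among them may lean on it. The 5 general blood cell markers summed to between 2856 and 3632 normalised CPM in every library, and of 10 markers of marrow stroma and fibroblasts, Col3a1, Dcn, Lum, Pdgfra and Cxcl12 had 0 reads in all groups. The sum of those 10 was 2.32 to 3.91 normalised CPM in the empty libraries, 1.06 to 2.61 with SETBP1, 5.82 to 7.99 with NRAS and 3.63 to 5.63 with both.

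The stretches before the start sites of 6 members are shown, 5 that rose with NRAS and Mmp14, which did not. AP-1 and Ets sites are the textbook link from MAPK signalling to several promoters of this system, not to each of the 6 shown. The part of such sites in the changes described here was not tested. The RefSeq promoter table (build GRCm38.p6) matched 7 of the 9 members. It held no entry for Plau or Plat, and the Timp2 entry lay within annotated exons and is not shown. Each run is written 5′ to 3′ on the plus strand, which is the strand of all 6 genes, and covers the 250 bases before the start site or, for Mmp12, 234 bases, because annotated exon bases were left off. Capitals mark matches of 3 motifs searched on both strands: AP-1 as TGANTCA, an Ets site as AGGAAG, and the TATA box as TATAAA. No matches overlapped. The runs are Plaur at chr7:24462233-24462482, Serpinb2 at chr1:107511173-107511422, Mmp12 at chr9:7344147-7344380, Mmp13 at chr9:7272264-7272513, Timp1 at chrX:20869916-20870165 and Mmp14 at chr14:54431348-54431597.
Plaur: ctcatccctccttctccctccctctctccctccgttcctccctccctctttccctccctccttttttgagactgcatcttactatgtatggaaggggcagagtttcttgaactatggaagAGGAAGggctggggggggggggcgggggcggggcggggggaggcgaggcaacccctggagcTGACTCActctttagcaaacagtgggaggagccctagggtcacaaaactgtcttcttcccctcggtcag
Serpinb2: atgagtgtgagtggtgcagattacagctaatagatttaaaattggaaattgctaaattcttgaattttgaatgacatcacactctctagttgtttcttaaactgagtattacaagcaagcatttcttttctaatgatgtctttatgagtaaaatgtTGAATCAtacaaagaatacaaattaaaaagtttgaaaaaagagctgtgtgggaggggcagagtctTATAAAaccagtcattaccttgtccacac
Mmp12: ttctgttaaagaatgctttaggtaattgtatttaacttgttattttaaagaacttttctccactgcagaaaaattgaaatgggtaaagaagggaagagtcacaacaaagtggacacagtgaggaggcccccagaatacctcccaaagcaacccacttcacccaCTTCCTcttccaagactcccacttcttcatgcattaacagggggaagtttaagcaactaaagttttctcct
Mmp13: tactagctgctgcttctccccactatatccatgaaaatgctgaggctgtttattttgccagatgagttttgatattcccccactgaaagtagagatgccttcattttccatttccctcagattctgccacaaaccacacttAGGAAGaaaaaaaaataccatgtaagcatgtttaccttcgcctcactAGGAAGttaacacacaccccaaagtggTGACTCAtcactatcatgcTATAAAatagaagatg
Timp1: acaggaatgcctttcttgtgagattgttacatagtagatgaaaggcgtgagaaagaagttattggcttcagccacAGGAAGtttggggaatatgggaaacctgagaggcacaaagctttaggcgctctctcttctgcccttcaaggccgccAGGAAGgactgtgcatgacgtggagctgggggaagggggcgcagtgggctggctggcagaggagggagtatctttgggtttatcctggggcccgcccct
Mmp14: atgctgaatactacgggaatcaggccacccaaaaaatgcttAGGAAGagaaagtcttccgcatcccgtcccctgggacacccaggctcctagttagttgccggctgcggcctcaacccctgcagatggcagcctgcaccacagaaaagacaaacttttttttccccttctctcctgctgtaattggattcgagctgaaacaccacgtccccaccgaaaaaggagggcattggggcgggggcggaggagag

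The AP-1 letters were found in 3 of these windows: TGACTCA at position -69 of Plaur, TGAATCA at -94 of Serpinb2 and TGACTCA at -35 of Mmp13, counted to the first base of the match from the start site. By comparison, 6.75% of 32851 mouse promoter windows of 250 bases hold that motif. The Ets letters were found at -130 in Plaur, at -87 in Mmp12 (on the minus strand), at -109 and -62 in Mmp13, at -175 and -99 in Timp1 and at -209 in Mmp14. They occur in 29.5% of all windows. The TATA letters were found at -29 in Serpinb2 and -16 in Mmp13, and occur in 12.4% of all windows. A match is a description of the letters and not of a bound site, and the search says nothing of windows further out.

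**Figure D1:**
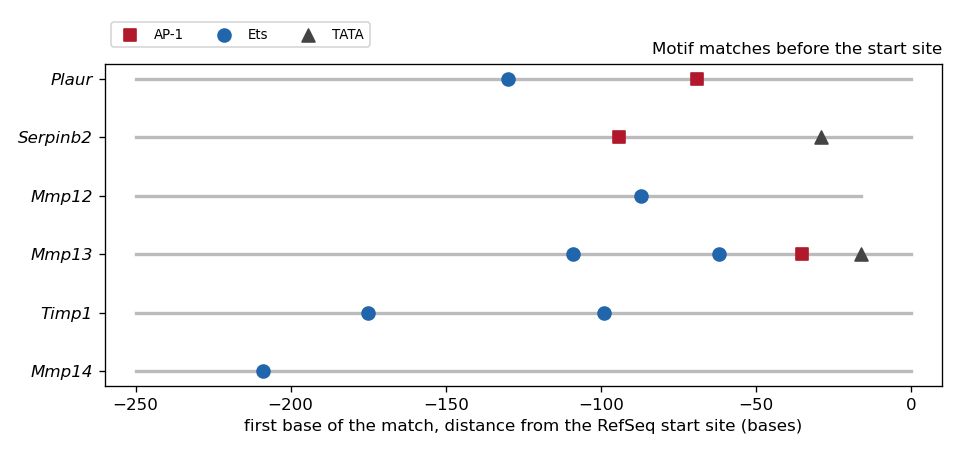
Positions of AP-1, Ets and TATA letters before the RefSeq start sites of 6 members, in bases from the start site; grey lines show the stretch searched. AP-1 letters lie at -69 in Plaur, -94 in Serpinb2 and -35 in Mmp13, and the Mmp14 stretch holds a single Ets match at -209.

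All 9 members are protein-coding in the GENCODE M21 annotation of GRCm38, the build also called mm10 that the submitters' processing notes name. Mmp13 and Mmp12 are neighbours on chromosome 9, at 7272514-7283331 and 7344381-7369499. Plau lies on chromosome 14 at 20836660-20843385 and Mmp14 on the same chromosome at 54431612-54445364. Plaur lies on chromosome 7 at 24462484-24475968, Plat on chromosome 8 at 22757727-22782844 and Serpinb2 on chromosome 1 at 107511423-107535478. Timp2 lies on chromosome 11 at 118301069-118355740, and Timp1 on chromosome X at 20870166-20874735, within the span of Syn1 on the opposite strand. Whether reads were counted by strand is not given in the sources used here. Timp1 and Syn1 share 0 exon bases, and Syn1 had 4 reads in each empty library, 3 to 9 with SETBP1, 14 to 15 with NRAS and 23 to 28 with both. The part of Timp1 transcripts in those Syn1 reads was not tested. Serpinb2 shares 291 exon bases with Serpinb10 and Mmp12 shares 157 with Mmp1b, so reads there may have been split or dropped. Mmp1b had 0 reads in all 12 libraries.

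Values below are normalised CPM, the same unit after TMM scaling, which sets libraries on a common scale through the bulk of their genes. Fold changes are log2 differences with their standard error (SE), tested with edgeR's quasi-likelihood test and called at a Benjamini-Hochberg adjusted p under 0.05 over 10993 genes. For NRAS against empty, 7 members were higher and 0 lower, where 32.5% of all genes were called, 17.0% higher and 15.5% lower. For both against SETBP1, 7 were higher and 1 lower, where 42.4% of all genes were called, 20.9% higher and 21.5% lower. For both against empty, 7 were higher and 0 lower, beside 40.6%, 20.8% and 19.8%. For SETBP1 against empty, 2 were higher and 0 lower, beside 14.9%, 8.31% and 6.55%. For both against NRAS, 1 was higher and 0 lower, beside 1.91%, 0.528% and 1.38%. These comparisons share libraries, so they are not independent of each other. The median log2 change of the 8 members was 3.33 for NRAS against empty and 0.62 for SETBP1 against empty, while that of all genes was -0.01 in each. Plau and Timp1 passed the low-count filter through the groups with NRAS, where they were high, and they are in these counts and medians. The members were also chosen with earlier results of these data known. Setting them beside all genes is therefore a description and not a test. Groups that do not overlap are common here: 56.3% of all genes showed this for NRAS against empty, 48.8% for both against SETBP1, 61.2% for both against empty, 33.2% for SETBP1 against empty and 25.2% for both against NRAS. In bulk RNA, fewer cells of a type and less RNA per cell cannot be told apart.

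**Figure D2:**
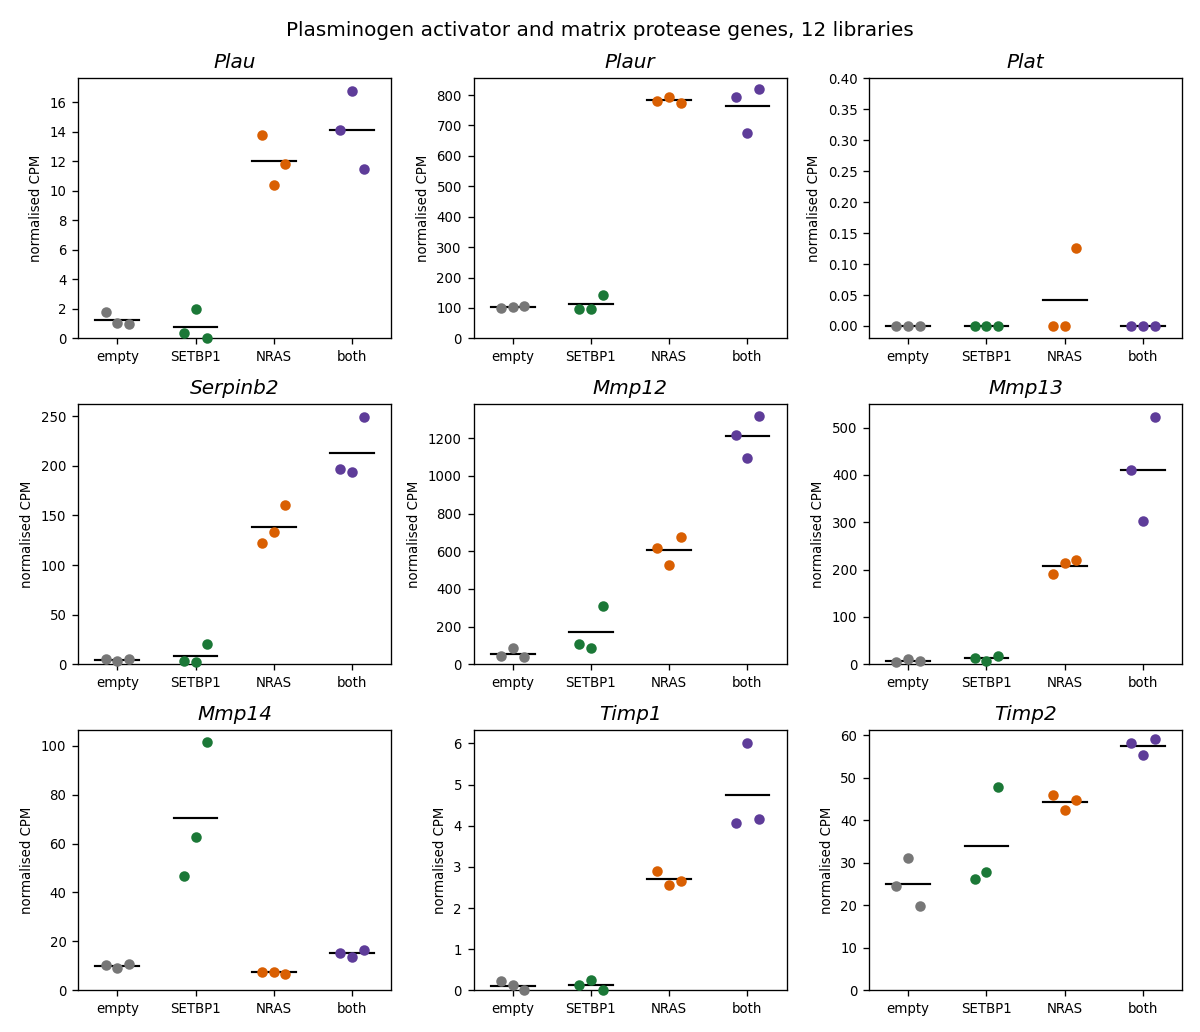
Normalised CPM (linear axes, each panel with its own scale) of the 9 members in the 12 libraries; points are libraries and black lines the mean of 3. With NRAS, 7 members lie above the empty libraries, Mmp14 is high in the SETBP1 libraries at 46.8 to 102 normalised CPM, and Plat stays at 0 except in 1 library. For NRAS against empty, the groups do not overlap for 56.3% of all genes.

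Urokinase was a rare transcript that rose with NRAS. Plau stood at 1.77, 1.02 and 0.945 normalised CPM in the empty libraries, 0.361, 1.96 and 0 with SETBP1, 13.7, 10.4 and 11.8 with NRAS, and 14.1, 16.8 and 11.4 with both. The libraries with NRAS did not overlap those without it, while empty and SETBP1 overlapped, as did NRAS and both. Plau rose by log2 3.23 (SE 0.51, adjusted p 2.72e-04) for NRAS against empty and by 4.22 (SE 0.55, adjusted p 4.16e-05) for both against SETBP1. The SETBP1 value against empty was -0.75 (SE 0.70, adjusted p 0.472). Without SETBP1 replicate 2, which had the highest Plau level of its group, that value was -2.71 with an adjusted p of 0.0321. Without SETBP1 replicate 3, which had 0 Plau reads, the value was -0.16 with an adjusted p of 0.875.

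The urokinase receptor was abundant in every group. Plaur stood at 101, 104 and 108 normalised CPM in the empty libraries, 95.6, 96.3 and 144 with SETBP1, 781, 795 and 776 with NRAS, and 794, 675 and 819 with both. Libraries with NRAS were all far above those without it, and the libraries with both overlapped those with NRAS but spread more widely. Plaur rose by log2 2.91 (SE 0.14, adjusted p 4.28e-09) for NRAS against empty and by 2.77 (SE 0.14, adjusted p 5.18e-09) for both against SETBP1. The values for SETBP1 against empty, at 0.10 (SE 0.13, adjusted p 0.610), and for both against NRAS, at -0.04 (SE 0.13, adjusted p 0.969), were not past the threshold.

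Tissue-type activator was not measurable. Plat had 0 reads in 11 libraries and 1 read in NRAS replicate 3. A count of 0 allows up to 3 counts, which is 0.332 to 0.420 normalised CPM depending on the library, and this limit covers counting error only. Plat did not pass the low-count filter and no fold change is given.

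The serpin inhibitor of the activators also rose with NRAS. Serpinb2 stood at 5.42, 3.17 and 5.13 normalised CPM in the empty libraries, 3.61, 2.09 and 20.9 with SETBP1, 122, 133 and 160 with NRAS, and 197, 193 and 250 with both. The 6 libraries with NRAS were above the 6 without it, and SETBP1 replicate 3 alone separated from the other libraries without NRAS. Serpinb2 rose by log2 4.91 (SE 0.53, adjusted p 1.04e-05) for NRAS against empty and by 4.56 (SE 0.49, adjusted p 7.35e-06) for both against SETBP1, or by 6.20 without SETBP1 replicate 3. For SETBP1 against empty the value was 0.97 (SE 0.61, adjusted p 0.275) with all libraries and -0.67 (adjusted p 0.184) without SETBP1 replicate 3. Libraries with both did not overlap those with NRAS and the change of 0.62 (SE 0.39, adjusted p 0.649) was not past the threshold. Without SETBP1 replicate 3, which is in neither group of that comparison but enters the shared estimate of the spread, the same value of 0.62 had an adjusted p of 0.00145.

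Mmp12, the macrophage elastase, had the highest level per kilobase of the 3 matrix metalloprotease members in every group. It stood at 43.0, 88.6 and 38.2 normalised CPM in the empty libraries, 109, 88.3 and 310 with SETBP1, 616, 527 and 677 with NRAS, and 1219, 1094 and 1316 with both. The order of groups was empty, SETBP1, NRAS and both, with overlap only between empty and SETBP1. Mmp12 rose by log2 3.42 (SE 0.42, adjusted p 3.15e-05) for NRAS against empty and by 2.84 (SE 0.40, adjusted p 8.09e-05) for both against SETBP1, or by 3.62 without SETBP1 replicate 3. With SETBP1 alone it rose by 1.58 (SE 0.40, adjusted p 0.0211), and by 0.80 (adjusted p 0.0179) without SETBP1 replicate 3. That call was lost without empty replicate 1 (1.42, adjusted p 0.0919), without empty replicate 3 (1.37, adjusted p 0.103) and with only the empty and SETBP1 libraries in the fit (1.58, adjusted p 0.126). For both against NRAS the value was 1.00 (SE 0.37, adjusted p 0.268), past the threshold without SETBP1 replicate 3 (1.00, adjusted p 6.90e-04) and with only the groups compared in the fit (0.99, adjusted p 2.52e-06).

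The collagenase gene showed the largest rise with NRAS among the matrix metalloprotease members. Mmp13 stood at 4.54, 11.2 and 7.02 normalised CPM in the empty libraries, 14.3, 7.97 and 16.9 with SETBP1, 191, 214 and 219 with NRAS, and 409, 302 and 523 with both. Empty and SETBP1 overlapped, and every library with both was above every library with NRAS. Mmp13 rose by log2 4.79 (SE 0.30, adjusted p 5.52e-08) for NRAS against empty and by 4.97 (SE 0.28, adjusted p 1.88e-08) for both against SETBP1. It was the only member called for both against NRAS with edgeR's quasi-likelihood test on all libraries, at 0.98 (SE 0.23, adjusted p 0.0439). The call was lost without empty replicate 3 (0.98, adjusted p 0.0726), NRAS replicate 1 (0.92, 0.177), NRAS replicate 2 (1.00, 0.155), or NRAS replicate 3 (1.02, 0.142). It was also lost without either SETBP1+NRAS replicate 1 (0.99, 0.164) or replicate 3 of that group (0.77, 0.231), and with DESeq2 (0.98, 0.110). For SETBP1 against empty the value was 0.81 (SE 0.33, adjusted p 0.109), past the threshold without empty replicate 2 (1.21, adjusted p 0.0496) or SETBP1 replicate 2 (1.07, adjusted p 0.0447). Without SETBP1 replicate 3 that value was 0.59 (adjusted p 0.271).

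**Figure D3:**
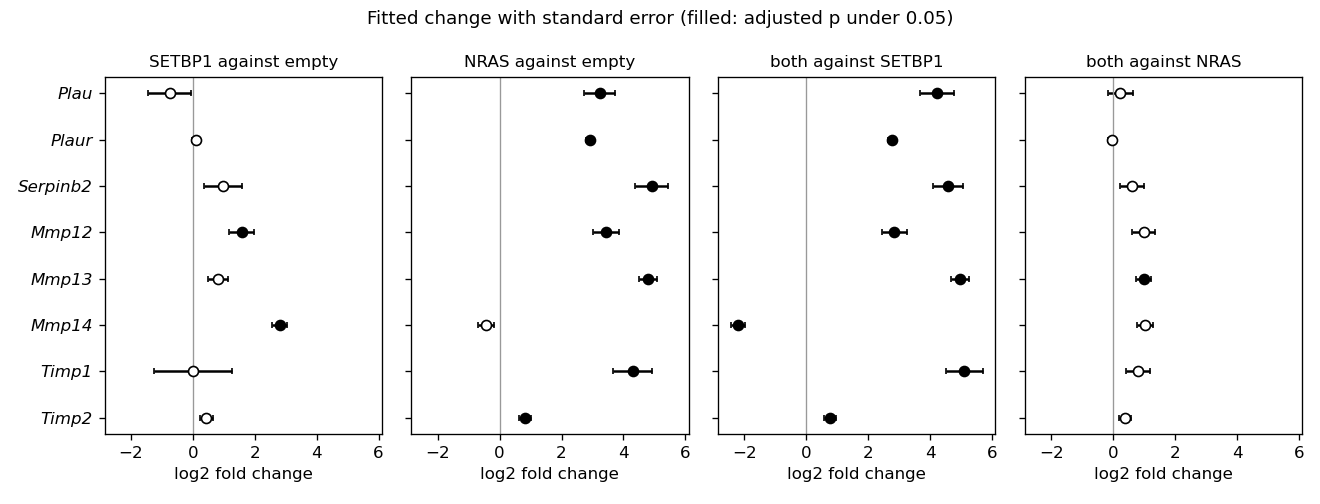
Fitted log2 fold change of the 8 members tested in 4 comparisons; bars are the standard error and filled points have an adjusted p under 0.05. With NRAS, 7 members rose by 0.82 to 4.91, and Mmp14 is the member that moved most with SETBP1 (2.80) and fell with NRAS added to SETBP1 (-2.22). For NRAS against empty, 17.0% of all genes were called higher.

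Mmp14, the membrane-anchored protease, went the other way. It stood at 10.5, 9.02 and 10.7 normalised CPM in the empty libraries, 46.8, 62.6 and 102 with SETBP1, 7.66, 7.58 and 6.85 with NRAS, and 15.4, 13.6 and 16.4 with both. No pair of groups overlapped, and SETBP1 replicate 3 was the highest library. Mmp14 rose by log2 2.80 (SE 0.24, adjusted p 1.74e-04) for SETBP1 against empty, and by 2.44 (adjusted p 7.01e-09) without SETBP1 replicate 3. It fell by 2.22 on the log2 scale (SE 0.23, adjusted p 5.70e-06) for both against SETBP1, and by 1.85 (adjusted p 3.58e-09) without that library. The remaining changes were -0.45 (SE 0.26, adjusted p 0.210) for NRAS against empty, 0.59 (SE 0.25, adjusted p 0.0729) for both against empty and 1.04 (SE 0.26, adjusted p 0.0598) for both against NRAS, none of them past the threshold. Without SETBP1 replicate 3 all 3 were past it, at adjusted p 0.0368, 0.00347 and 3.55e-04. The value for both against NRAS was also past it with DESeq2 (1.04, adjusted p 0.00569) and with library size scaling (1.01, 0.0418). So it was with no low-count filter (1.04, 0.0279), without SETBP1 replicate 1 (1.04, 0.0140) and with only the groups compared (1.04, 7.39e-04). Under the other alternatives that value was not past it.

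The SETBP1 change of Mmp14 was therefore compared with and without NRAS. This interaction was -1.77 on the log2 scale (SE 0.35), with an adjusted p of 0.143, and 0.0455% of all genes were called in that test, 0.00910% higher and 0.0364% lower. For none of the 8 members was the interaction past the threshold with edgeR's quasi-likelihood test on all libraries, and Mmp14 was the 1 member with an unadjusted p under 0.05, at 1.83e-04. Mmp14 was past it with DESeq2 (-1.77, adjusted p 9.75e-04), with no low-count filter (-1.76, 0.0470), without SETBP1 replicate 1 (adjusted p 0.0216) and without SETBP1 replicate 3 (-1.40, 0.00519). Over the other 7 members the interaction ran from -0.59 for Mmp12 to 0.99 for Plau, with adjusted p from 0.608 to 0.943.

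Markers of monocytes and macrophages moved with the SETBP1 results for Mmp14 and Mmp12. Of 14 such markers, 9 were called higher and 0 lower for SETBP1 against empty, and their summed level was 1795 to 2215 normalised CPM in the empty libraries and 2849 to 4961 with SETBP1, highest in SETBP1 replicate 3. With NRAS the sum was 1709 to 1916, with 2 called higher and 9 lower, and with both it was 2500 to 2640, with 6 called higher and 0 lower against NRAS. Of all genes, 14.9% were called for SETBP1 against empty, 32.5% for NRAS against empty and 1.91% for both against NRAS. No marker of the 14 was at 0 in any group. The part of these markers in the Mmp14 and Mmp12 results was not tested. The rise of Mmp12 with NRAS came with a marker sum whose range overlapped that of the empty libraries. Within that sum Cd14 rose from 32.8 ± 6.26 to 358 ± 10.4 normalised CPM (SD, n = 3), while 9 of the 14 markers were called lower. In SETBP1 replicate 1, Mmp14 stood at 46.8 normalised CPM with a marker sum of 2849, and in SETBP1+NRAS replicate 1 at 15.4 with a sum of 2640. That is a single pair of libraries, and close sums do not mean that each marker was alike. For both against SETBP1, 3 of the 14 markers were called higher and 9 lower (median log2 -0.95), beside 42.4% of all genes called. Ctss, for example, was 762 to 1518 normalised CPM with SETBP1 and 323 to 356 with both. Neutrophil markers, of which 9 were listed, summed to 11122 to 12541 normalised CPM in the empty libraries, 5121 to 7287 with SETBP1, 5697 to 7389 with NRAS and 1918 to 2403 with both. They include Mmp8 and Lcn2. For NRAS against empty 1 of these markers was called higher, 5 lower and 3 were not past the threshold. Of 6 endothelial markers 3 were tested, 2 higher and 1 lower for NRAS against empty, and their sum was 109 to 124 normalised CPM in the empty libraries and 179 to 283 with NRAS. Mast cell and basophil markers summed to 2964 to 3070 in the empty libraries and 638 to 1096 with NRAS. The sum of 6 dendritic cell markers was 7.52 to 8.91 and 18.0 to 24.5 in those groups. Only 2 of the 6 were tested, with 1 called higher and 0 lower for NRAS against empty, and Cd209a and Siglech had 0 reads with NRAS. Of the stroma markers only Pdgfrb, which marks pericytes and stromal cells, was tested, and it rose by log2 1.96 (SE 0.54, adjusted p 0.0133) with NRAS, from 1.59 ± 0.498 to 6.15 ± 0.990 normalised CPM (SD, n = 3). The part of these markers in the NRAS results was not tested.

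**Figure D4:**
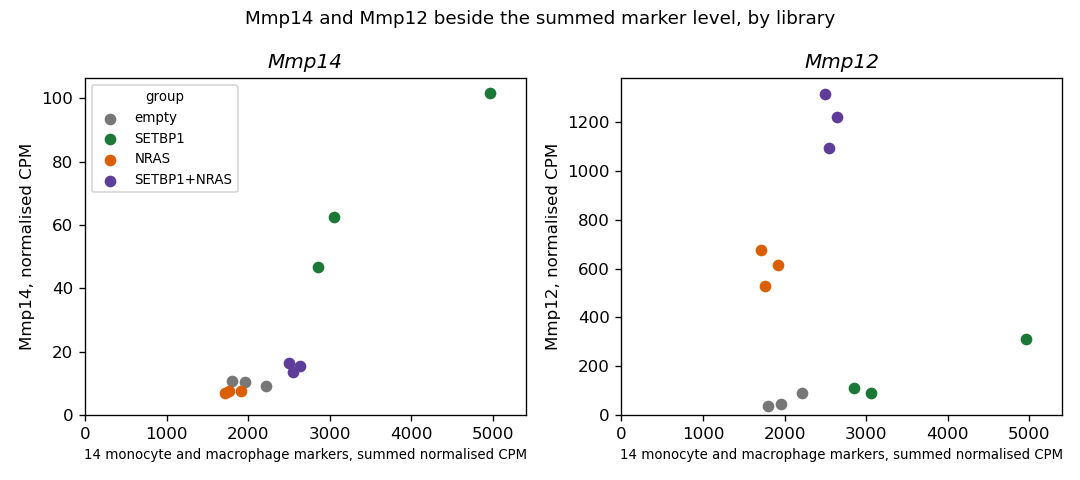
Normalised CPM of Mmp14 and Mmp12 against the summed normalised CPM of 14 monocyte and macrophage markers, 1 point per library (linear axes). SETBP1 libraries, at marker sums of 2849 to 4961, have the highest Mmp14, while the NRAS libraries have high Mmp12 at marker sums of 1709 to 1916.

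The inhibitors of the metalloproteases followed NRAS. Timp1 had 2, 1 and 0 reads in the empty libraries, 1, 2 and 0 with SETBP1, 22, 19 and 21 with NRAS, and 29, 47 and 31 with both. The libraries with NRAS were all above those without it, at a low absolute level of 2.71 ± 0.174 normalised CPM (SD, n = 3) with NRAS and 4.75 ± 1.10 with both. By summed counts scaled to library size, the ratio of NRAS to empty was 22.0 (95% exact interval 7.19 to 110), and that of both to SETBP1 was 38.9 (12.9 to 191), intervals that cover counting error only. The adjusted p was 1.49e-04 for NRAS against empty and 1.61e-05 for both against SETBP1. Timp2 stood at 24.4, 31.1 and 19.8 normalised CPM in the empty libraries, 26.3, 27.8 and 47.8 with SETBP1, 45.9, 42.5 and 44.7 with NRAS, and 58.2, 55.4 and 59.2 with both. The NRAS libraries lay above the empty ones and below those with both, and SETBP1 replicate 3 lay above the NRAS libraries. Timp2 rose by log2 0.82 (SE 0.21, adjusted p 0.00740) for NRAS against empty and by 0.76 (SE 0.20, adjusted p 0.00801) for both against SETBP1, or by 1.09 without SETBP1 replicate 3.

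For both against NRAS, Timp1 was at 0.81 (SE 0.38, adjusted p 0.451) and Timp2 at 0.38 (SE 0.20, adjusted p 0.532). Timp2 with SETBP1 alone was at 0.43 (SE 0.21, adjusted p 0.158), or 0.10 without SETBP1 replicate 3 and 0.60 with an adjusted p of 0.0454 without SETBP1 replicate 1. Timp2 and Mmp14 encode partners in the activation of pro-Mmp2, and Mmp2 itself was at 9.73 ± 2.27 normalised CPM (SD, n = 3) with empty vectors, 17.0 ± 7.37 with SETBP1, 4.19 ± 2.71 with NRAS and 4.48 ± 1.54 with both. Per kilobase of transcript, the ratio of Mmp14 to Timp2 was 0.614, 0.414 and 0.768 in the empty libraries, 2.55, 3.21 and 3.03 with SETBP1, 0.239, 0.255 and 0.219 with NRAS, and 0.378, 0.350 and 0.396 with both. That ratio was above 1 only in the 3 SETBP1 libraries, SETBP1 replicate 3 lying within the range of the other members of its group.

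Levels per kilobase of the principal GENCODE transcript allow members to be ordered. In the empty libraries Plaur came first at 69.2 ± 2.22 CPM per kb (SD, n = 3), then Mmp12 at 15.7 ± 7.72, Timp2 at 6.78 ± 1.53, Mmp14 at 3.88 ± 0.350, Mmp13 at 2.83 ± 1.26, Serpinb2 at 2.29 ± 0.612, Plau at 0.531 ± 0.195 and Timp1 at 0.131 ± 0.126. Mmp13 overlapped in its libraries with both its neighbours in that order, Mmp14 and Serpinb2, while Mmp14 was above Serpinb2 in every empty library. With both mutants Plaur stood at 506 ± 50.8, Mmp12 at 335 ± 30.9, Mmp13 at 154 ± 41.4, Serpinb2 at 107 ± 15.8 and Timp2 at 15.5 ± 0.528, while Plau, Mmp14 and Timp1 lay close together at 6.02 ± 1.14, 5.83 ± 0.556 and 5.38 ± 1.25. With SETBP1 alone Mmp14 was the third, at 27.1 ± 10.8, after Plaur at 74.2 ± 18.2 and Mmp12 at 46.9 ± 34.0, and the last pair overlapped in their spread. The transcripts the authors counted are not given in the sources used here, so the scale per kilobase rests on the annotation chosen.

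The rest of the plasminogen system was read from a list of 24 other genes, of which 15 passed the low-count filter. Of these, 8 were higher and 2 lower for NRAS against empty (median log2 0.40), 2 and 2 for SETBP1 against empty (median 0.28), 8 and 4 for both against SETBP1, and 0 and 0 for both against NRAS. Of all genes, 32.5%, 14.9%, 42.4% and 1.91% were called in those comparisons. The same shares belong beside the counts of the lists that follow, where 1 gene called for SETBP1 against empty is near its share. Setting the lists beside all genes is a description and not a test. Anxa2, which with S100a10 forms a cell surface receptor for plasminogen, rose by log2 0.97 (SE 0.11, adjusted p 2.18e-05) with NRAS, from 469 ± 35.0 to 921 ± 47.9 normalised CPM (SD, n = 3). Serpinb8 was higher at log2 1.59 (SE 0.31) with SETBP1 and 1.38 (SE 0.32) with NRAS. Itgam, the integrin chain that binds urokinase receptor and marks myeloid cells, fell by 0.70 on the log2 scale (SE 0.13, adjusted p 0.00662) with SETBP1. Plg itself had at most 5 reads in a group, so its own transcript was at background, and Eno1 had 1 to 3 reads in a group and may share reads with a near-identical copy.

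Among 20 other matrix metalloprotease genes, 19 were listed and 9 passed the filter. For NRAS against empty 2 were higher and 3 lower (median log2 -0.42), and for SETBP1 against empty 0 were higher and 1 lower. Mmp10 passed the filter only through the groups with NRAS, where it was high, and it is in these counts and medians. Mmp10, a stromelysin, had 0 reads in all libraries without NRAS, 13, 22 and 20 with NRAS, and 52, 50 and 127 with both. Against a floor of 3 counts over the empty group it was at least 19.5-fold higher with NRAS and at least 82.9-fold higher with both, and the change for both against NRAS, at 2.08 (adjusted p 0.0577), was not past the threshold. Mmp9, a gelatinase stored in neutrophil granules, stood at 74.3 ± 7.98 normalised CPM (SD, n = 3) with empty vectors, 30.0 ± 13.4 with SETBP1, 145 ± 23.5 with NRAS and 75.6 ± 9.83 with both. It fell by 1.31 on the log2 scale (SE 0.26, adjusted p 0.00761) with SETBP1 and rose by 0.96 (SE 0.24, adjusted p 0.00809) with NRAS. Mmp8, the neutrophil collagenase, fell by 1.54 (SE 0.29, adjusted p 0.00109) and Mmp28 by 1.78 (SE 0.57, adjusted p 0.0288) on the log2 scale with NRAS. For both against SETBP1 Mmp2 fell by 1.92 (SE 0.42, adjusted p 0.00252).

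The Mmp genes of the chromosome 9 cluster that holds Mmp13 and Mmp12 did not move alike. In the order of their positions, leaving out Mmp1a between Mmp3 and Mmp10, which was not analysed here, they are Mmp13, Mmp12, Mmp1b, Mmp3, Mmp10, Mmp8, Mmp27, Mmp20 and Mmp7, from 7272514 to 7699585 in GRCm38. Mmp13, Mmp12 and Mmp10 were higher with NRAS and Mmp8 was lower. Mmp27 stood at 1.02 and 0.747 normalised CPM in the empty and NRAS groups (log2 -0.42, not past the threshold). Mmp3 had 0 reads in every empty and SETBP1 library, 2 in 1 NRAS library, and 8, 0 and 2 with both. Mmp1b, Mmp20 and Mmp7 had 0 reads in all 12 libraries.

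**Figure D5:**
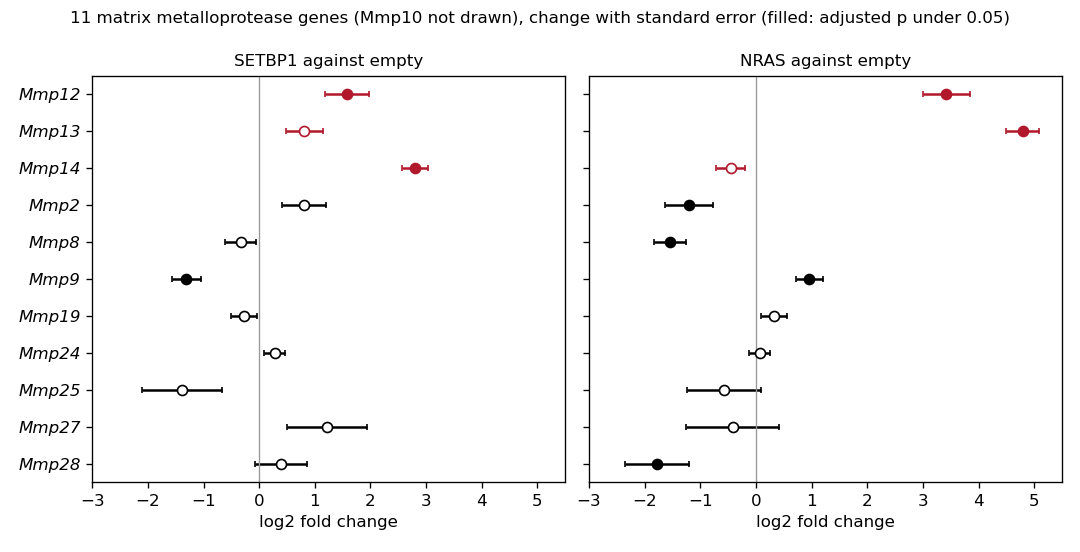
Log2 fold change of 11 matrix metalloprotease genes (red: members; black: other genes) for SETBP1 and for NRAS against empty; bars are the standard error and filled points have an adjusted p under 0.05. Mmp10 is not drawn, since it had 0 reads in the empty libraries. Mmp13 and Mmp12 rose with NRAS by 4.79 and 3.42 while Mmp8 changed by -1.54, and Mmp14 rose by 2.80 with SETBP1.

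Of 8 other inhibitors and activators of metalloproteases, 7 were tested, with 2 higher and 3 lower for NRAS against empty (median log2 0.02) and 0 higher and 1 lower for SETBP1 against empty. Timp3, an inhibitor bound to the matrix, fell by 2.37 on the log2 scale with NRAS (SE 0.52, adjusted p 0.00310), from 11.1 ± 1.72 to 2.12 ± 1.03 normalised CPM (SD, n = 3), the opposite direction to Timp1 and Timp2. Furin, the convertase that removes the propeptide of Mmp14, rose by log2 1.16 (SE 0.13, adjusted p 1.19e-05), and Cd44, a hyaluronan receptor that docks metalloproteases, by 1.03 (SE 0.11). Reck, a membrane inhibitor, fell by 1.21 on the log2 scale (SE 0.32, adjusted p 0.00741) for both against empty. Lcn2, which binds Mmp9 and is also a neutrophil marker, fell by 1.14 (SE 0.12, adjusted p 1.38e-04) for both against NRAS.

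The ADAM and ADAMTS list of 16 genes had 8 tested, with 3 higher and 3 lower for NRAS against empty. Adam8, a protease of activated myeloid cells, rose from 111 ± 2.64 to 1521 ± 76.8 normalised CPM (mean ± SD of 3 libraries) with NRAS, a log2 change of 3.77 (SE 0.13, adjusted p 1.60e-10). It rose by log2 0.44 (SE 0.12, adjusted p 0.0274) with SETBP1. Adam19 and Adamtsl4 fell by 3.10 and 1.20 on the log2 scale with NRAS. Of 18 matrix substrates and binding proteins 8 were tested, and 4 were higher and 2 lower for NRAS against empty. Col5a1 passed the filter through the groups with NRAS, where it was high, and it is in these counts. Spp1 (osteopontin), an adhesive protein that several of these proteases cleave, rose by log2 7.57 (SE 0.44) with NRAS. Vcan (versican) fell by 2.27 (SE 0.30) and Fn1 (fibronectin) by 1.50 (SE 0.17), while Col5a1 rose by 2.21 (SE 0.31). Of the fibrillar collagen genes of the list other than Col5a1, Col3a1 had 0 reads in every library. Col1a1 had 6 reads over the empty libraries, 13 with SETBP1 and 0 in both groups with NRAS. Col1a2 had 16 reads over the empty libraries, 12 with SETBP1, 17 with NRAS and 8 with both mutants. Without SETBP1 replicate 3, the share of all genes called for both against NRAS went from 1.91% to 7.52%, and the genes called there went from 0 to 5 in the plasminogen list, from 0 to 3 in the metalloprotease list, from 1 to 3 among inhibitors and activators and from 0 to 3 among matrix genes.

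The genes most like each member were taken as the 3 with the smallest root mean square difference in centred log2 CPM over the 12 libraries, among 9072 genes or more with a mean count of at least 50. For Mmp12 they were Ccl7, Ccl2 and Cd36, at 0.34, 0.36 and 0.41, against a median of 1.83 over all those genes. Mmp14 was most like Ccl5, Cxcl16 and Clec4n, at 0.36, 0.43 and 0.45, and Plaur most like Pim3, Cdk18 and Plk3, at 0.17, 0.20 and 0.21. Mmp13 was most like Ccl4, Sema3c and Angptl2, at 0.55, 0.56 and 0.57, and Serpinb2 most like Sema3c, Pdpn and Mmp13, at 0.56, 0.70 and 0.70. The Plau profile was most like Dhrs9, Flt1 and Cdk14, at 0.52, 0.54 and 0.55. Timp1 was most like Ccnd1, Acvrl1 and Cdk18, at 0.33, 0.40 and 0.45, and Timp2 most like Trim26, Cfp and Tpm4, at 0.13, 0.14 and 0.14. Among the members themselves the closest pair was Plaur with Timp1, at 0.58, and the most unlike was Serpinb2 with Mmp14, at 3.32. The prior count of 2 in these log2 values narrows the range of a gene with few reads. Timp1 had at most 2 reads in each library without NRAS. Its fitted change for NRAS against empty was 4.30, beside 2.91 for Plaur. The likeness of Timp1 to Plaur and to its 3 nearest genes may therefore lean on the prior count. Ccl5, the gene most like Mmp14, stood at 5.20 ± 1.54 normalised CPM (SD, n = 3) with empty vectors, 24.2 ± 7.01 with SETBP1, 3.74 ± 0.992 with NRAS and 5.72 ± 0.679 with both.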

How the data were processed

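RNA sequencing counts were analysed for 12 libraries of transduced mouse bone marrow, 3 in each of 4 groups, grouped by their titles. Counts were used as the authors deposited them, in 1 table of unnormalised integers with a row for each gene symbol. STAR, DESeq2 and the build mm10 are named per the submitters' processing notes, without versions or roles; the counting tool, annotation and strand setting are not given in the sources used here. From the counts, edgeR 4.0.16 in R 4.3.3 was run with TMM scaling, filterByExpr (minimum count 10, minimum total 15) and a quasi-likelihood F test on 4 group means, two-sided, with Benjamini-Hochberg adjustment over 10993 genes and a threshold of 0.05. SE is the log2 fold change divided by the root of F. The steps were tested on simulated data. Log2 CPM used a prior count of 2.

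Named genes were the 9 members, and from each other list up to 3 genes a comparison with the largest change among those called with groups that do not overlap, plus for each member the 3 genes of most alike profile. Other genes, such as Mmp2 beside Mmp14, Plg, Eno1, Col3a1, Col1a1, Pdgfrb, S100a10, Fn1 and the genes of the chromosome 9 cluster, were named after their values were seen. The members and lists were chosen with earlier results of these data known. Alternatives were DESeq2-style size factors, library size scaling, no filter, a mean count of at least 10, DESeq2 1.42.0, limma-voom (limma 3.58.1), only the groups compared, a replicate block and leaving out each library. Within a group, libraries differed by more than sampling noise (chi-square per degree of freedom of at least 2.75). One gene that the rule for named genes selects is not reported here.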

Additional observations from a re-analysis of the deposited data

Results flagged for a closer look

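Col5a1, which encodes a fibrillar collagen chain, drew attention because its SETBP1 change pointed one way without NRAS and the other way with it. It had 9, 16 and 18 reads in the empty libraries, 7, 6 and 3 with SETBP1, 69, 63 and 58 with NRAS, and 79, 97 and 78 with both, so every SETBP1 library was below every empty one and every library with both was above every one with NRAS. The difference between the changes was 1.87 on the log2 scale (SE 0.49; edgeR quasi-likelihood, adjusted p 0.206), not past the threshold.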

How the results depend on the processing

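The number of members called was 8 for both against SETBP1, 7 or 8 for NRAS against empty and 7 or 8 for both against empty under every alternative. For SETBP1 against empty it was 2, or 1 with only the groups compared, and ran from 1 to 4 when 1 library was left out. For both against NRAS it was 1, but 2 with library size scaling, 2 with no low-count filter, 5 with only the groups compared and 0 with the replicate block (Mmp13 at 0.96, adjusted p 0.0666), and from 0 to 4 when 1 library was left out. The interaction called 0 members, but 1 (Mmp14) with no low-count filter and 1 with DESeq2, and 0 to 1 when 1 library was left out. The cause of these differences was not tested. Of the single changes of members under the alternatives, 913 kept their call, 24 became called and 11 lost it, and none that was called reversed.

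Replicate numbers are shared between groups, but the labels do not say that they pair the libraries. Deviations from group means correlated between -0.13 and 0.12 over 18 same-number pairs, 1 of them above 0.1, and 1 of 12 libraries deviated most like its own number. With the replicate block the calls over all genes fell from 210 to 164 for both against NRAS. Scaling by library size alone put the median change over all genes at -0.10 for NRAS against empty and -0.13 for both against empty, and the 7 members higher there were called higher as well. Depth limits Plat, Timp1 and Plau without NRAS, where 3 counts are 0.332 to 0.420 normalised CPM.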
